A study of Schizosaccharomyces pombe with 22 samples.

Results

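The factors that assemble the large (60S) subunit of the ribosome were examined in an array study of Pst3 in the fission yeast Schizosaccharomyces pombe. The list held 44 gene symbols of nucleolar factors for pre-60S assembly and 27S pre-rRNA processing. It was given by name, but was drawn up with earlier results of these data known. Of these, 2 symbols (ssf1 and nug1) matched no gene of the RefSeq annotation, while noc2 and rrp14 each matched 2 genes, so that 44 genes were taken up. For rrp14 these were rrp14, annotated as Rrp14-N, and rrp1402, annotated as Rrp14-C. The arrays carried a probe, named by symbol or systematic identifier, for 41 of them, and spb1, rlp7 and rlp24 had none. Expression could be compared for 38 of the 4431 genes tested, since ytm1 and rrp15 had no probe on one of the array prints and nop16 lay in a probe plate with misplaced names. Probes named for intergenic regions (IGRs) covered 40 of the factors among 4927 regions.

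The series held 22 samples. The expression arrays carried probes of open reading frames (ORFs) and held total RNA of 2 kinds: strain Hu1505 with pst3 under an nmt promoter, labelled as repressed (2 arrays), and wild type (8 arrays, of which 5 belonged to a print called A here and 3 to a print called B). The nmt promoter is a promoter that thiamine shuts off; its growth medium and time of repression were not stated. Chromatin arrays held Pst3-GFP, Pst3 fused to green fluorescent protein, against wild-type input on IGR probes (2 arrays), a Pst3-GFP experiment with beads (2 samples each on IGR and ORF probes), and histone H3 precipitates of strains named hst2D and hst4D and of wild type (1 array per strain and probe set). Whether the arrays of a group hold RNA of separate cultures is not said, and codes in the titles recur between wild-type arrays, mostly across the prints. The p-values therefore measure no more than the variation between arrays, which may be technical.

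Ribosomal RNA is transcribed in the nucleolus, and the precursor of the large subunit takes shape there around the 27S pre-rRNA. Assembly factors join and leave along the way: scaffold proteins and the 5S particle are placed early, RNA helicases and GTPases drive rearrangements, AAA ATPases strip factors off, and export factors bring the particle to the cytoplasm. Pst3 is a homolog of Sin3, the scaffold of histone deacetylase complexes. The roles given below are known mostly from Saccharomyces cerevisiae.

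Several facts about the arrays touch every expression value. The arrays labelled pst3 repressed formed a print of their own with no wild-type array on it, so that print and strain cannot be told apart. Each was available as 1 channel, labelled Cy5 for replicate 1 and Cy3 for replicate 2. Median signals net of background were 1573.2 and 3650.8 intensity units on the arrays labelled pst3 repressed, and ranged between 390 and 1505 on print A and between 1160.5 and 3743.2 on print B. Levels over all genes correlated at r = 0.8828 between the arrays labelled pst3 repressed, at 0.9361 to 0.9531 among arrays 2, 4 and 5 of print A and at 0.7946 to 0.907 within print B. Array 1 of print A correlated with arrays 2, 4 and 5 at no more than 0.7628, and array 3 with the other print A arrays at no more than 0.6604. Array 1 held 1 set of readings, where every other wild-type array held 4. Between prints A and B the range was 0.5369 to 0.7806, and between the arrays labelled pst3 repressed and wild type 0.4991 to 0.7293. On the print that holds pst3 repressed alone, names of 288 probes from 3 plates fitted another well better than their own and were left out.

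The pst3 probe itself showed no lower level in the strain. Its normalised log2 level was 10.22 and 10.08 on the arrays labelled pst3 repressed, against 9.77, 10.21, 9.98, 9.97 and 10.22 on print A and 10.01, 10.54 and 10.95 on print B. The groups overlapped, and the differences were 0.12 (SE 0.36, limma adjusted p = 0.855) from print A and -0.35 (SE 0.39, limma adjusted p = 0.596) from print B. The arrays are therefore named by their label, and every direction below rests on that label.

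Promoter sequences are shown for rrp14, dbp2 and ebp2, which were lower against both wild-type prints, and for the stretch between erb1 and nop4, the only pair of neighbouring factors among the 44 genes, which are transcribed away from each other. The letters are from RefSeq, build ASM294v3, and each promoter is the 250 bases before the annotated gene start on the gene's own strand, with motif matches in capitals. Gene coordinates given below are of the same build.
rrp14 (chrI:3659065-3659314, minus strand): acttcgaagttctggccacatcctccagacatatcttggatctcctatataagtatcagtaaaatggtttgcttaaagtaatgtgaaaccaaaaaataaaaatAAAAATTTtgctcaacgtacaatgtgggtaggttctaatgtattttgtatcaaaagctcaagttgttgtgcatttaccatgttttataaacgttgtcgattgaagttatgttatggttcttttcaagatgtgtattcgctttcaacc
dbp2 (chrII:3665359-3665608, minus strand): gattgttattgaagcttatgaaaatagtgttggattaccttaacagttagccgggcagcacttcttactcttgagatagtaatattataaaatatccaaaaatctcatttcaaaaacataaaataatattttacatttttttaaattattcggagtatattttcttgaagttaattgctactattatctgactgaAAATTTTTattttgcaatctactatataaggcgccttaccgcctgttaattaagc
ebp2 (chrI:2012565-2012814, plus strand): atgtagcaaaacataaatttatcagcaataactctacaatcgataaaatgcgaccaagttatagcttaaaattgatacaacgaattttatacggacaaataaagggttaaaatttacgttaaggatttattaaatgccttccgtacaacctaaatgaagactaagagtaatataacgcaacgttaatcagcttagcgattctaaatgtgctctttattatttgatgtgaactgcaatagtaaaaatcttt
erb1 to nop4 (chrII:2716660-2716853, plus strand): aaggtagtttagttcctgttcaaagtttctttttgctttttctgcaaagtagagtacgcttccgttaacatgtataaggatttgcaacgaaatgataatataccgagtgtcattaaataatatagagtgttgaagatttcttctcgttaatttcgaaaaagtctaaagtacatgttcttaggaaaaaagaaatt

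In rrp14 the capitals mark AAAAATTT, the letters of the RRPE motif of S. cerevisiae ribosome biogenesis genes, from position -147 before the gene start. In dbp2 they mark the reverse complement of these letters from position -55. The promoter of ebp2 and the stretch of 194 bases between erb1 and nop4 held no match to any of the motifs searched. Over windows from 250 bases before to 50 bases after the gene start, and on both strands, RRPE was found in 11 of the 44 factors (25%) and in 15% of all 5112 promoters. The PAC motif GATGAG, also from S. cerevisiae, was found in 3 factors (6.82%), against 8.59% of all promoters. The S. pombe element HomolD (CAGTCACA), known from ribosomal protein genes, was found in 1 factor, rlp7, and in 2.68% of all promoters. A match describes these letters only.

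The comparison of the arrays labelled pst3 repressed with wild type asked which transcripts differ when pst3 is turned down. Most assembly factors had lower levels on the arrays labelled pst3 repressed, with the lowest mean of the differences from both prints for dbp2, an RNA helicase (-2.88), rrp14, an early scaffold protein (-2.78), and then brx1 (-2.19), noc201 (-2.19) and its fellow scaffold protein ebp2 (-2.18). Of these 5, brx1 passed against print A only. Against print A, 11 of the 38 factors passed the test as lower (limma with Benjamini-Hochberg adjustment at 0.05) and 1, nop4, as higher, where 8.24% of all genes tested passed as lower and 7.31% as higher. Against print B, 8 factors passed as lower and 0 as higher, where 6.7% of all genes passed as lower and 7.13% as higher; 19 factors had an unadjusted p under 0.05 there in either direction, a share of 29.3% over all genes. The median difference of the 38 factors was -0.89 from print A and -0.93 from print B on the log2 scale, against -0.03 and -0.01 over all genes tested.

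These contrasts share the arrays labelled pst3 repressed and are not independent of each other. Passing as lower against both prints were 6 factors: dbp2, rrp14, ebp2, noc201, nog1 and mak16. The background for this rule was 3.39% of all genes. No factor passed as higher against both, where 3.54% of all genes did. On 12 factors both arrays labelled pst3 repressed lay below all 8 wild-type arrays (10.0% of all genes did), and on 1 factor, nog2, both lay above (12.6% of all genes). Differences were negative from both prints for 25 of the 38 factors (37.4% of all genes) and positive from both for 4 (35.7%). Taken singly, each array labelled pst3 repressed had 29 or 30 of the 38 factors below a print's mean, with medians between -0.99 and -0.77. Over all genes tested these medians lay between -0.0155 and 0.0122. Of the 4431 genes, 2271 had a negative difference from print A and 2231 from print B, with both arrays averaged.

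The calls depended on few arrays, for the factors and for all genes tested. Over all genes the counts also fell when either array labelled pst3 repressed was left out. Without replicate 3 of print B, 145 of all genes passed as lower against print B, against 297 with every array. Without that replicate of print B, 4 factors passed as lower against print B and 3 against both prints. Fewer factors passed as lower against each print when either array labelled pst3 repressed was left out, which leaves 1 array in the group. Without replicate 1 labelled pst3 repressed, the median of the 38 factors was -0.989 from print A and -0.906 from print B. Without replicate 2 it was -0.775 and -0.936. Over all genes these medians were -0.015 and 0.012 without replicate 1, and -0.007 and -0.012 without replicate 2. The median of the 38 factors stayed between -1.0 and -0.775 from print A and between -0.99 and -0.88 from print B when any 1 array was left out. Over the 27 alternative settings with values against a print, the call against print B was lost in 10 for nog1, in 5 for dbp2, in 4 each for noc201 and mak16, in 2 for ebp2 and in 1 for rrp14. The call against print A was lost in 3 each for nog1 and mak16, in 2 for noc201, in 1 for rrp14 and in 0 for dbp2 and ebp2. The highest adjusted p for dbp2 against print B in these settings was 0.154.

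**Figure D1:**
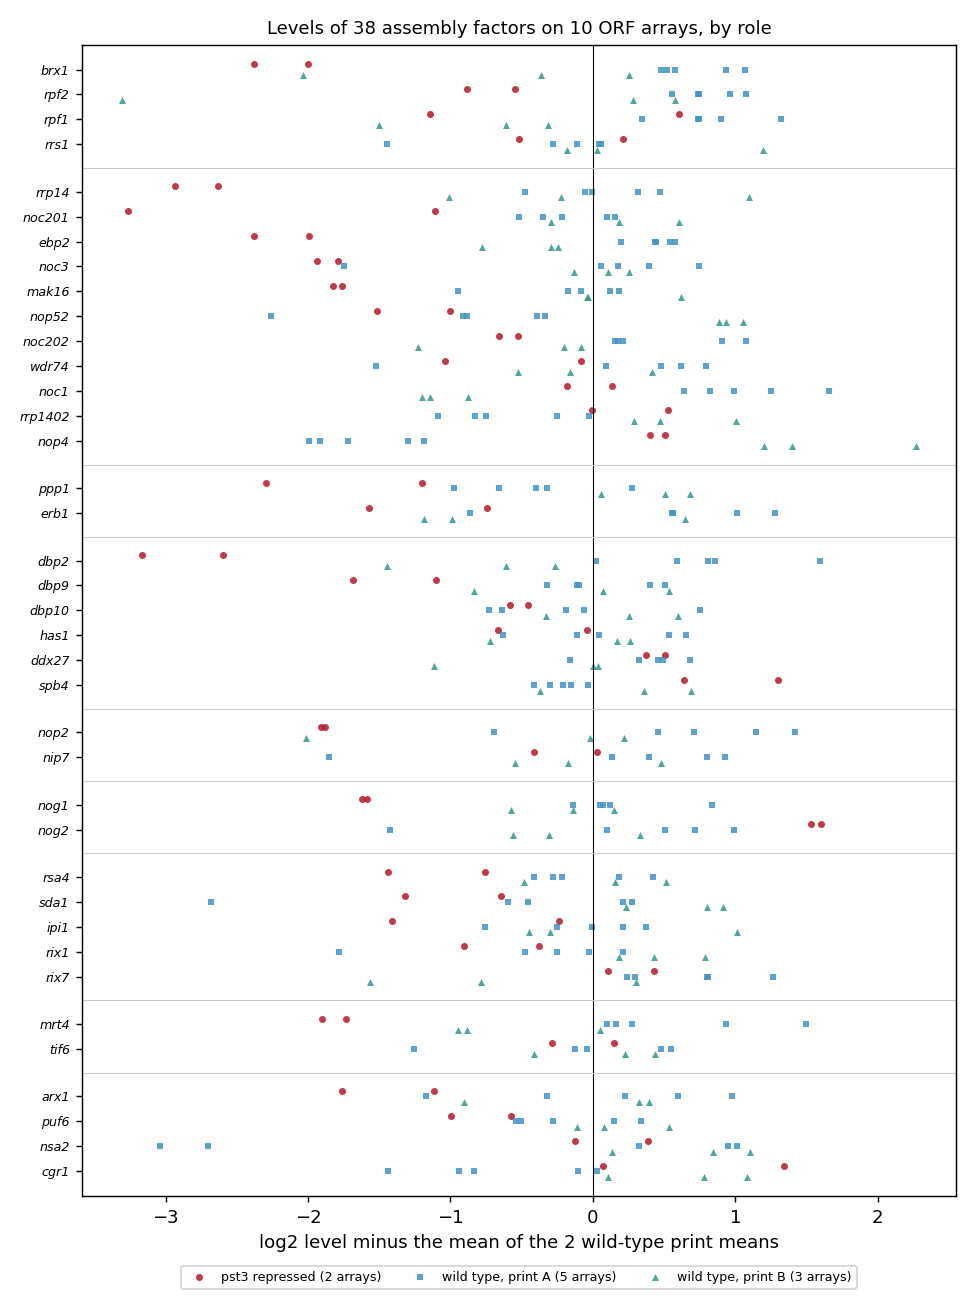
Level of each of the 38 factors on each of the 10 ORF arrays, as the normalised log2 level minus the mean of the wild-type print means (horizontal axis), with 1 row per gene and grey lines between the 9 roles. Circles are the 2 arrays labelled pst3 repressed, squares the 5 arrays of print A and triangles the 3 arrays of print B; on 12 rows both circles lie left of every wild-type mark, and on the row of nog2 both lie right of every one.

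**Figure D2:**
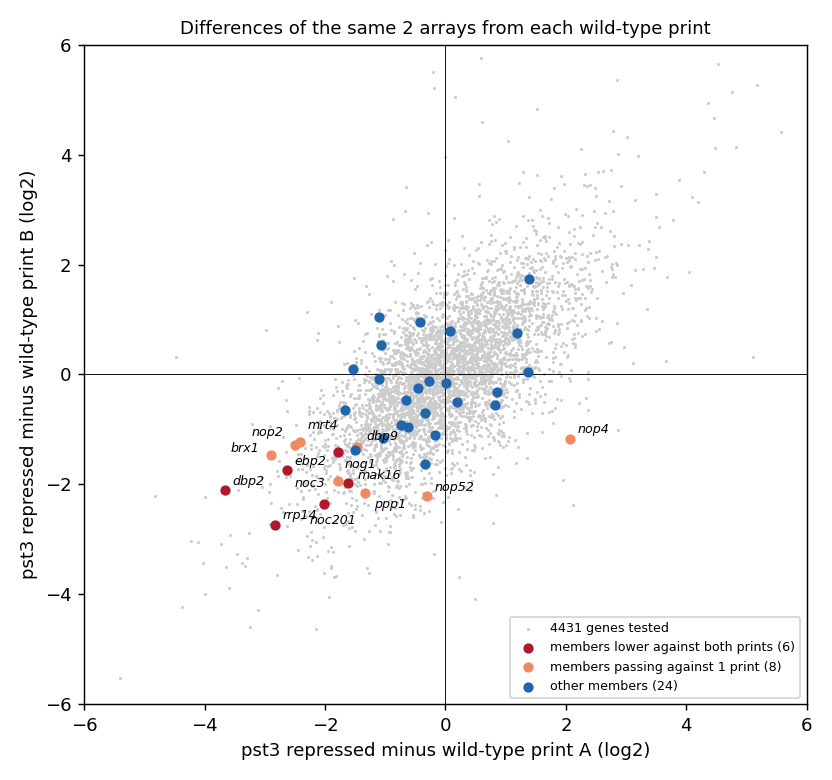
Difference of the arrays labelled pst3 repressed from print A (horizontal axis) and from print B (vertical axis), in log2 units, for 4431 genes (grey) and the 38 factors (coloured by the test). The axes share the same 2 arrays, so they are not independent; 25 of the 38 factors lie at the lower left, nop4 lies at the lower right, and 4 grey points fall outside the axes.

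The early scaffold held 11 of the 38 factors and 4 of the 6 that were lower against both prints. In this role 5 factors passed as lower against print A (8.24% of all genes did) and 5 against print B (6.7%). The medians of the role were -1.10 and -1.74. Rrp14 (probe spac8c9.10c; chromosome I, 3657811 to 3659064), an early pre-rRNA-binding protein, had levels of 8.54 and 8.84 on the arrays labelled pst3 repressed, against 10.99, 11.41, 11.94, 11.79 and 11.46 on print A and 10.46, 12.56 and 11.24 on print B. The groups did not overlap, although the probe exceeded the empty spots on replicate 2 only of the arrays labelled pst3 repressed. The limit set by the empty spots was low on replicate 2, at 6.25 intensity units against 782.7 on replicate 1. The differences were -2.83 (SE 0.51, limma adjusted p = 0.00365) from print A and -2.73 (SE 0.55, limma adjusted p = 0.00837) from print B. Ebp2 (spac17h9.05; chromosome I, 2012815 to 2016204), a partner of Brx1, had levels of 9.24 and 9.62 on the arrays labelled pst3 repressed, against 12.19, 12.06, 12.16, 11.81 and 12.05 on print A and 10.84, 11.37 and 11.32 on print B. Its arrays were tight in each group, and the differences were -2.62 (SE 0.33, limma adjusted p = 0.000587) from print A and -1.74 (SE 0.36, limma adjusted p = 0.00985) from print B.

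Noc201 (spac1142.04; chromosome I, 3631521 to 3633874), a Noc2 protein that partners with Noc1 or Noc3 on early particles, had levels of 8.35 and 10.50 on the arrays labelled pst3 repressed, against 11.71, 11.39, 11.77, 11.26 and 11.09 on print A and 11.31, 12.22 and 11.80 on print B. The arrays labelled pst3 repressed differed from each other by more than the whole wild-type range, both lay below it, and replicate 1 was not above the empty spots. The differences were -2.02 (SE 0.52, limma adjusted p = 0.0213) from print A and -2.35 (SE 0.56, limma adjusted p = 0.0186) from print B, and without replicate 1 they were -0.95 and -1.28 (adjusted p = 0.324 and 0.202). Mak16 (spac222.06; chromosome I, 953093 to 954325), a member of the Nsa1 module, had levels of 9.19 and 9.13 on the arrays labelled pst3 repressed, against 10.01, 10.87, 11.07, 10.78 and 11.14 on print A and 10.92, 11.57 and 10.92 on print B. Both arrays labelled pst3 repressed lay below every wild-type array, with replicate 1 not above the empty spots, and the differences were -1.61 (SE 0.39, limma adjusted p = 0.0176) from print A and -1.98 (SE 0.43, limma adjusted p = 0.0112) from print B. Without either of the arrays labelled pst3 repressed, mak16 no longer passed (adjusted p = 0.108 and 0.106 against print A).

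Noc3 and nop52 passed against 1 print each. Noc3 (spbc887.03c), the partner of Noc2 on later particles, had levels of 9.59 and 9.74 on the arrays labelled pst3 repressed, against 9.78, 11.92, 11.70, 11.58 and 12.27 on print A and 11.39, 11.63 and 11.78 on print B. Array 1 of print A lay near the arrays labelled pst3 repressed, but no array overlapped, and the differences were -1.79 (SE 0.56, limma adjusted p = 0.0491) from print A and -1.94 (SE 0.61, limma adjusted p = 0.0539) from print B. Nop52 (spbc9b6.07), the homolog of Rrp1 of the Nsa1 module, had levels of 10.00 and 9.48 on the arrays labelled pst3 repressed, against 8.74, 10.61, 10.67, 10.09 and 10.11 on print A and 11.94, 11.88 and 12.05 on print B. Both arrays labelled pst3 repressed fell within the range of print A and below that of print B, and the differences were -0.30 (SE 0.49, limma adjusted p = 0.715) from print A and -2.22 (SE 0.53, limma adjusted p = 0.0188) from print B.

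Nop4 (spbc4f6.14; chromosome II, 2716854 to 2719120), an RNA-binding protein of the earliest particles, was the 1 factor that passed as higher against print A, while its difference from print B was negative and did not pass. Its levels were 9.60 and 9.49 on the arrays labelled pst3 repressed, against 7.38, 7.10, 7.80, 7.18 and 7.91 on print A and 11.36, 10.49 and 10.30 on print B. The arrays labelled pst3 repressed lay between the wild-type prints without overlapping either. The probe was not above the empty spots on any array of print A, so only a bound holds there: at least 2.76-fold higher on the arrays labelled pst3 repressed, with adjusted p = 0.00521 in the fit. The difference from print B was -1.17 (SE 0.44, limma adjusted p = 0.0945). The remaining 4 scaffold factors, noc1, noc202, wdr74 and rrp1402, passed against neither print; their differences lay between -1.10 and 0.85 from print A and between -0.47 and 1.05 from print B.

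**Figure D3:**
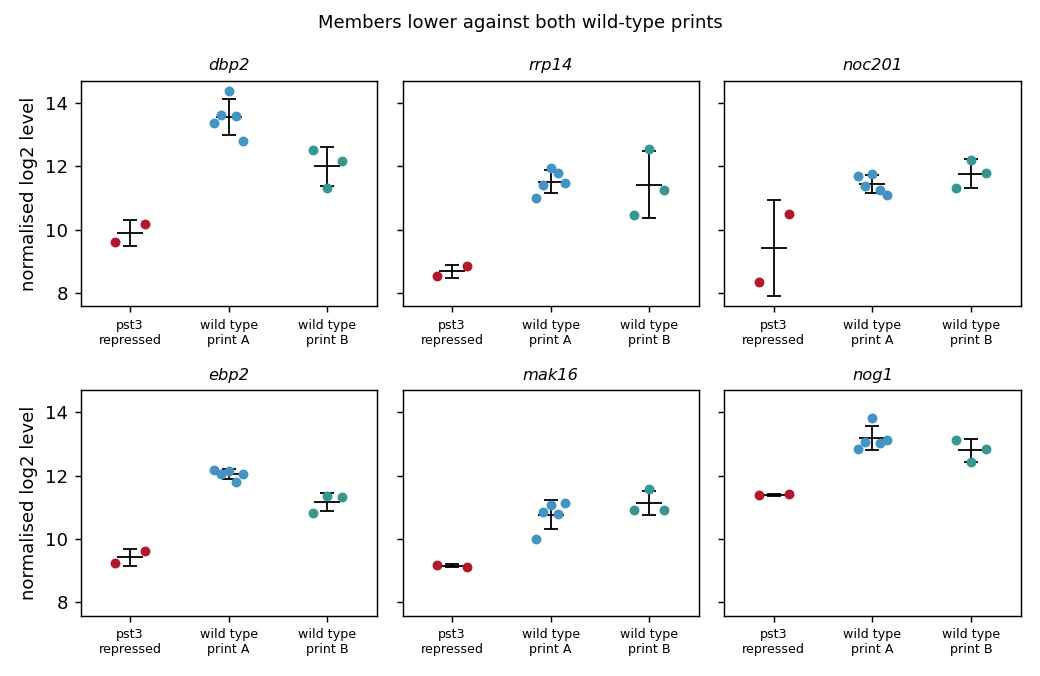
Normalised log2 level (vertical axis) of the 6 factors that were lower against both wild-type prints, with 1 point per array, the mean as a horizontal mark and the SD as bars, for the arrays labelled pst3 repressed (n = 2), print A (n = 5) and print B (n = 3). The points labelled pst3 repressed lie below every wild-type point in all 6 panels, and the noc201 points lie at 8.35 and 10.50.

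Of the 4 tested factors that place the 5S particle or carry a Brix domain, brx1 passed as lower against print A only. Brx1 (spbc800.06), the Brix partner of Ebp2, had levels of 10.26 and 9.88 on the arrays labelled pst3 repressed, against 12.73, 12.78, 13.19, 12.84 and 13.33 on print A and 12.51, 10.23 and 11.89 on print B. Its lowest print B array, replicate 2, lay inside the range of the arrays labelled pst3 repressed, and the differences were -2.90 (SE 0.52, limma adjusted p = 0.00377) from print A and -1.47 (SE 0.57, limma adjusted p = 0.107) from print B. Rpf1, rpf2 and rrs1, of which Rpf2 and Rrs1 bring the 5S particle, passed against neither print. Rpf2 had levels of 9.15 and 9.49 on the arrays labelled pst3 repressed, against 6.73 on array 1 of print B and between 10.32 and 11.11 on the other 7 wild-type arrays.

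The PeBoW complex, named after Pes1, Bop1 and WDR12 in mammals, was represented by ppp1, the pescadillo homolog, and erb1. Ppp1 (spbc19f5.05c) had levels of 11.40 and 10.31 on the arrays labelled pst3 repressed, against 11.62, 11.94, 12.87, 12.20 and 12.28 on print A and 13.11, 12.66 and 13.28 on print B. Both arrays labelled pst3 repressed lay below all wild-type arrays, and the differences were -1.33 (SE 0.43, limma adjusted p = 0.0566) from print A and -2.16 (SE 0.47, limma adjusted p = 0.0113) from print B. Erb1, the neighbour of nop4 across the stretch printed above, averaged 9.75 ± 0.58 (SD, n = 2) over the arrays labelled pst3 repressed, 11.42 ± 0.83 (n = 5) on print A and 10.40 ± 1.01 (n = 3) on print B. It passed against neither print (-1.67 (SE 0.62, limma adjusted p = 0.0895) from print A and -0.65 (SE 0.68, limma adjusted p = 0.57) from print B), and its groups overlapped.

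Dbp2 had the lowest mean difference of the 38 factors, and the 6 RNA helicases differed in sign. Dbp2 (chromosome II, 3662735 to 3665358), a DEAD-box helicase with roles in rRNA and mRNA processing, had levels of 9.61 and 10.18 on the arrays labelled pst3 repressed, against 13.37, 13.63, 14.37, 13.58 and 12.80 on print A and 12.51, 11.33 and 12.17 on print B. No arrays overlapped, and the differences were -3.66 (SE 0.47, limma adjusted p = 0.000587) from print A and -2.11 (SE 0.51, limma adjusted p = 0.0189) from print B. Dbp9 (spcc1494.06c) lay below all wild-type arrays as well, with 9.57 and 8.99 on the arrays labelled pst3 repressed, against 11.07, 10.35, 10.58, 10.56 and 11.18 on print A and 9.84, 11.21 and 10.75 on print B. Its differences were -1.47 (SE 0.43, limma adjusted p = 0.0383) from print A and -1.32 (SE 0.47, limma adjusted p = 0.0841) from print B. Spb4, which acts on late 27S particles, and ddx27, the homolog of Drs1, were among the 6 highest factors but passed against neither print. Spb4 averaged 11.52 ± 0.47 (SD, n = 2) over the arrays labelled pst3 repressed, 10.32 ± 0.14 (n = 5) on print A and 10.77 ± 0.54 (n = 3) on print B, with differences of 1.19 (SE 0.38, limma adjusted p = 0.0519) from print A and 0.75 (SE 0.41, limma adjusted p = 0.252) from print B. Ddx27 differed by 0.08 from print A and 0.80 from print B, and has1 and dbp10 by -0.45 and -0.35 from print A and by -0.25 and -0.69 from print B.

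Nop2, the methyltransferase for a cytosine of the large-subunit rRNA, passed as lower against print A only. Its levels (spbp8b7.20c) were 10.24 and 10.27 on the arrays labelled pst3 repressed, against 12.86, 13.29, 13.56, 12.60 and 11.45 on print A and 12.36, 10.13 and 12.12 on print B. Replicate 2 of print B lay below both arrays labelled pst3 repressed, and the differences were -2.50 (SE 0.65, limma adjusted p = 0.0223) from print A and -1.29 (SE 0.70, limma adjusted p = 0.246) from print B. Nip7, an RNA-binding partner of Nop2 and other factors, averaged 10.48 ± 0.32 (SD, n = 2) over the arrays labelled pst3 repressed, 10.76 ± 1.13 (n = 5) on print A and 10.59 ± 0.52 (n = 3) on print B and passed against neither print.

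Of the 2 GTPases, nog1 passed as lower against both prints, and nog2 had higher levels without passing. Nog1 (spbc725.18c; chromosome II, 1236671 to 1239208), which stays bound from the nucleolus to the cytoplasm, had levels of 11.38 and 11.41 on the arrays labelled pst3 repressed, against 12.86, 13.07, 13.84, 13.05 and 13.12 on print A and 13.15, 12.42 and 12.86 on print B. Its groups did not overlap, and the differences were -1.79 (SE 0.37, limma adjusted p = 0.00778) from print A and -1.41 (SE 0.41, limma adjusted p = 0.0379) from print B. Nog2 (spac6f6.03c; chromosome I, 2734031 to 2736208), which marks particles before export, had levels of 12.61 and 12.54 on the arrays labelled pst3 repressed, against 11.10, 11.51, 9.58, 11.72 and 12.00 on print A and 11.34, 10.45 and 10.70 on print B. Its values on both arrays labelled pst3 repressed exceeded those of the 8 wild-type arrays, but the differences of 1.39 (SE 0.57, limma adjusted p = 0.121) from print A and 1.74 (SE 0.62, limma adjusted p = 0.0824) from print B did not pass.

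Among factors of late nuclear remodelling, none of 5 passed. Rsa4 (spcc18.05c), which the AAA ATPase Rea1 pulls off the particle, averaged 9.97 ± 0.48 (SD, n = 2) over the arrays labelled pst3 repressed, 11.01 ± 0.35 (n = 5) on print A and 11.13 ± 0.51 (n = 3) on print B, with both arrays labelled pst3 repressed below all wild-type arrays and differences of -1.04 (SE 0.40, limma adjusted p = 0.104) from print A and -1.16 (SE 0.44, limma adjusted p = 0.101) from print B. Rix7, the ATPase that releases Nsa1, differed by -0.42 from print A and 0.95 from print B, with opposite signs. Rix1 and ipi1, of the Rix1 complex, and sda1 differed by -0.74 to -0.18 from print A and by -1.63 to -0.91 from print B.

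Mrt4, a placeholder for the stalk protein P0, passed as lower against print A. Its levels (spbc11g11.03) were 10.57 and 10.75 on the arrays labelled pst3 repressed, against 13.97, 12.76, 13.41, 12.64 and 12.58 on print A and 12.53, 11.53 and 11.60 on print B. No arrays overlapped, and the differences were -2.41 (SE 0.46, limma adjusted p = 0.00498) from print A and -1.23 (SE 0.50, limma adjusted p = 0.126) from print B. Tif6, which keeps the subunits apart until the large subunit is mature, averaged 12.37 ± 0.31 (SD, n = 2) over the arrays labelled pst3 repressed, 12.36 ± 0.72 (n = 5) on print A and 12.52 ± 0.44 (n = 3) on print B, and its differences were 0.01 and -0.15.

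The other assembly and export factors held no factor that passed. Puf6 (spcp1e11.11), a Puf-family RNA-binding protein, lay below all wild-type arrays at 10.69 and 11.11 on the arrays labelled pst3 repressed, with differences of -0.62 (SE 0.38, limma adjusted p = 0.309) from print A and -0.95 (SE 0.42, limma adjusted p = 0.15) from print B. Arx1, which helps export, differed by -1.50 from print A and -1.38 from print B. Cgr1, a small factor of pre-60S processing, averaged 13.15 ± 0.90 (SD, n = 2) over the arrays labelled pst3 repressed, 11.79 ± 0.61 (n = 5) on print A and 13.10 ± 0.50 (n = 3) on print B, and its differences were 1.36 (SE 0.50, limma adjusted p = 0.0869) from print A and 0.05 (SE 0.55, limma adjusted p = 0.967) from print B. Nsa2 averaged 10.76 ± 0.36 (SD, n = 2) over the arrays labelled pst3 repressed, 9.93 ± 2.01 (n = 5) on print A and 11.32 ± 0.50 (n = 3) on print B, and its print A arrays 1 and 3 lay at 7.92 and 7.58, against 10.94 to 11.64 on the other 3.

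The wild-type prints differed from each other for some of the same factors. Between print B and print A, 12.0% of all genes tested passed, as did 6 of the 38 factors, 3 higher on print B (5.51% of all genes) and 3 lower (6.45%), with a median of -0.11. Nop4 had the largest difference of these 6, with 11.36, 10.49 and 10.30 on print B against 7.38, 7.10, 7.80, 7.18 and 7.91 on print A, with adjusted p = 0.000167 in the limma fit. Since the probe was not above the empty spots on any array of print A, only a bound holds: at least 6.22-fold higher on print B. Print B was higher than print A by 1.91 for nop52 and by 1.18 for rrp1402, and lower for noc1 (-2.15), rpf1 (-1.62) and dbp2 (-1.55). Of the 6 factors lower against both prints, dbp2 was the only one that also differed between the wild-type prints by this test.

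The lists of 3 further groups placed the factors among other ribosome assembly genes. Like the factors, they were drawn up with earlier results of these data known. Over all genes, 8.24% passed as lower and 7.31% as higher against print A, and 6.7% and 7.13% against print B. Against both prints 3.39% of all genes passed as lower and 3.54% as higher. Of 26 other 60S factors, 1 passed as lower and 1 as higher against print A, 4 as lower and 1 as higher against print B, and 0 as lower against both, with medians of -0.53 and -0.63. Of 14 exosome subunits and cofactors, which trim pre-rRNA, none passed against either print, with medians of -0.19 and -0.19. Of 43 genes for the small subunit processome and other 40S factors, 10 passed as lower and 2 as higher against print A, and 4 as lower and 1 as higher against print B, with medians of -0.86 and -0.62. Lower against both were esf1, pwp2, rrp9 and utp3, and higher against both was rok1, a helicase of the small subunit processome. For pwp2, a core subunit of that particle, the differences were -2.76 (SE 0.39, limma adjusted p = 0.0012) from print A and -1.58 (SE 0.42, limma adjusted p = 0.0294) from print B. Differences were negative from both prints for 20 of the 26 other 60S factors, 7 of the 14 exosome genes and 29 of the 43 small subunit genes. Of the 38 factors 25 were, and of all genes 37.4%. Both arrays labelled pst3 repressed lay below all 8 wild-type arrays for 5, 1 and 14 genes of these lists, and above them for 0, 1 and 3. For the 38 factors these counts were 12 and 1, and over all genes the shares were 10.0% and 12.6%. Whether the lists differ from each other was not tested.

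Chromatin arrays asked where Pst3 lies on the genome. Values are log2 ratios of the deposited signal to a reference intensity that the authors gave for each probe, centred on the median of each array; which of the labelled channels the signal holds is not given, so a ratio above 0 is not read as binding. None of the 40 IGR probes of the factors passed the test over the 2 Pst3-GFP arrays (limma with Benjamini-Hochberg adjustment), where 1.77% of all regions passed in either direction, and 1 factor, tif6, had an unadjusted p under 0.05, where 9.44% of all regions did. The fit gave each of the 40 regions the same SE (0.84). The p-value thus followed the mean ratio alone and not how far the arrays differed at a region. The median ratio of the factors was -0.09, against -0.05 over all regions.

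The 2 Pst3-GFP arrays ranked these regions differently. Their ratios had opposite signs at 23 of the 40 regions (57.5%), where 44.9% of all regions did, and were both above 0 at 9 and both below at 8. Across the 40 regions, which share 2 arrays and 1 reference, the rank correlation of the arrays was -0.207, and over all regions it was 0.177. On array 2 the ratio followed the reference at a rank correlation of -0.912, against -0.0831 on array 1. Median signal was 1654 intensity units beside a median background of 1183 on array 2, and 816 beside 14 on array 1. Background was not subtracted for the ratios. Net signal on array 2 exceeded that of spots without a probe (95th percentile) at 8 of the 40 regions, against 37 on array 1. Over all regions the shares were 34.4% and 97.4%.

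The highest mean ratios were at ytm1 (1.36 and 1.66 on arrays 1 and 2), rix1 (0.48 and 2.16), mrt4 (1.03 and 0.76), ddx27 (1.83 and -0.34) and dbp10 (0.98 and 0.27). The lowest were at tif6 (-3.18 and -0.15), dbp9 (-4.03 and 0.92), brx1 (-2.71 and 0.06), sda1 (-3.67 and 1.09) and rrs1 (-2.64 and 0.16). Only tif6 among these 5 was negative on both arrays, and its limma adjusted p was 0.513. Net signal at dbp9 was not above that of spots without a probe on array 1 (-54.0 intensity units) or on array 2. On array 2 the same held at brx1, sda1 and rrs1 among the lowest, and at rix1, mrt4 and dbp10 among the highest. Of the 6 factors lower against both wild-type prints, the ratios on arrays 1 and 2 were -3.78 and 1.51 at dbp2, -2.33 and 0.11 at rrp14 and -1.82 and 0.68 at ebp2. They were 0.37 and -0.80 at noc201, -0.51 and -0.27 at mak16 and 1.05 and -0.70 at nog1. Mak16 was the one of the 6 with the same sign on both arrays. The region of dbp2 was not above spots without a probe on array 1 (net signal 0.5 intensity units) or on array 2. Those of rrp14, ebp2, mak16 and nog1 were not above them on array 2.

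**Figure D4:**
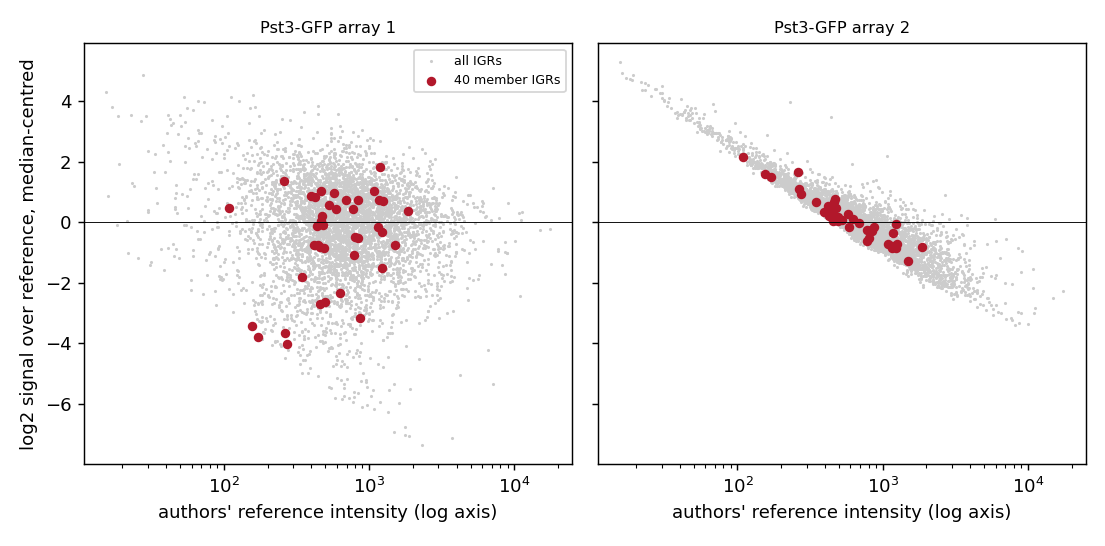
Median-centred log2 ratio of signal to reference (vertical axis) against the authors' reference intensity (horizontal log axis) for all IGR probes (grey) and the 40 regions of the factors (red), with 1 panel per Pst3-GFP array. On array 2 the points fall along a line that drops with the reference (rank correlation -0.912), and on array 1 they do not (-0.0831).

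The Pst3-GFP experiment with beads was 1 slide and had no test. For its first IGR sample the 2 deposited files held identical values, and the second IGR sample had a median signal of 1025 intensity units beside a median background of 1064. Median ratios of the factors were -0.01 and 0.37 on the IGR probes of samples 1 and 2, and -0.23 and -0.22 on their ORF probes, where 38 factors had a probe. The highest ORF ratios of sample 1 were at has1 (3.97) and dbp2 (3.64), which were 0.87 and 1.36 in sample 2. The lowest of sample 1 were at noc202 (-2.26) and puf6 (-2.01), which were -1.95 and -2.02 in sample 2. Of the 6 factors lower against both wild-type prints, ebp2 had ORF ratios of -1.06 and 1.61 and nog1 of 0.93 and -0.26, opposite in sign between samples.

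Histone H3 was measured at the same probes with 1 array per strain and probe set, so that no test was possible. In wild type the 2 files of an array ranked the probes alike, at rank correlations of 0.801 for IGR and 0.796 for ORF probes over all probes, but the ratio itself followed the reference at -0.919 and -0.904. Median ratios of the factors were 0.09 at IGRs and -0.08 at ORFs. The highest IGR ratios were at dbp2 (3.05 and 3.03 in the first and second file), rix1 (2.73 and 2.68) and ipi1 (1.73 and 1.78), whose reference intensities of 171.25, 109 and 155.75 were far below the median of 667 over all regions. The lowest were at noc201 (-1.26 and -1.54), puf6 (-0.97 and -1.25) and rrp15 (-0.58 and -0.83), with references of 1859, 1498 and 1152. High ratios thus stood where the reference was low, and low ratios where it was high. The part of the reference in the ratios was not tested. Median signals in wild type were 1065 intensity units on IGR and 1066 on ORF probes, beside median backgrounds of 685 and 657.2. Background was not subtracted from these signals.

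At ORF probes, the highest wild-type H3 ratios were at cgr1 (1.81 and 1.83), noc3 (1.72 and 1.70) and rpf2 (1.54 and 1.47), and the lowest at noc202 (-1.73 and -1.70), tif6 (-1.57 and -1.72) and rsa4 (-1.50 and -1.59). Among 37 factors with both kinds of probe, the IGR and ORF ratios correlated at a rank correlation of 0.303, a description across factors that share arrays. For hst2D and hst4D the 2 files of an array correlated at 0.176 to 0.3, and the ratios followed the reference at -0.976 to -0.957. Their median signals were 659.5 to 675 intensity units, beside median backgrounds of 556.5 to 564. Median ratios of the factors on the hst2D and hst4D arrays were 0.27 and 0.25 at IGRs and -0.28 and -0.21 at ORFs. Labels of these arrays name an input beside the H3 beads, and which of them the deposited signal holds is not given, so the strains were not compared with wild type.

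**Figure D5:**
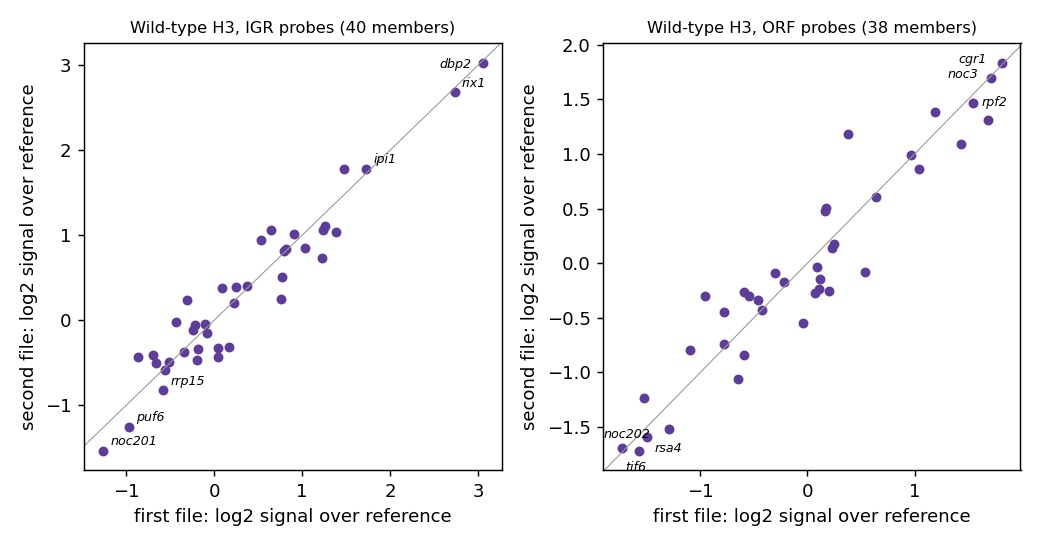
Wild-type H3 log2 ratio of signal to reference in the first file (horizontal axis) and in the second file (vertical axis) of the array, for the 40 factors with IGR probes (left) and the 38 with ORF probes (right), with the line of equal values. The 3 highest and 3 lowest factors are named; dbp2 at 3.05 and 3.03 is the highest at IGRs and cgr1 at 1.81 and 1.83 the highest at ORFs.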

How the data were processed

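The deposited scanner files, per the file headers, list for every spot the median intensity and the median intensity of its local surround, with 1 file for each channel and spot set. Protocols are cited in the labels by publication only; the scanner and any filters are not stated. In the chromatin files a further column holds a reference intensity for each probe, set by the authors. The authors' own value tables were not used here because their rows could not be tied to probe names.

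Here, normexp with an offset of 50 was used for background (log2 of signal plus 50 where background was 0 in 90% or more of a channel's spots), values of a name were averaged over spots and then over spot sets, and quantile normalization of the channels preceded their mean per array. Groups were fitted together with limma's lmFit and eBayes and Benjamini-Hochberg adjustment at 0.05. A probe was above empty spots where its net signal exceeded their 95th percentile. This limit differed widely between arrays, from 0 on print A array 5 to 2692 intensity units on print B replicate 3. Of 4716 genes on all arrays, 285 with misplaced plate names were left out. In 2 plates (192 names) correlation with wild type was 0.01 to 0.10 directly and 0.69 to 0.71 after exchange; in 1 turned plate (96 names) it was 0.08 and then 0.63. The other plates had a median of 0.72. These plates were left out once their values had been seen. Chromatin signals as given were divided by the reference, log2 transformed and median-centred, and the 2 Pst3-GFP arrays were fitted with limma against 0.

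The factors and lists were chosen with earlier results of these data known. Named with values were pst3, every factor passing against a print, the 6 highest and 6 lowest by mean difference, those outside the range of all wild-type arrays, and the extreme chromatin ratios; other factors named are chosen after their values were seen. The scripts were tested on simulated data. R 4.3.3, limma 3.58.1 and Python 3.11.15 were used.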

Additional observations from a re-analysis of the deposited data

Results flagged for a closer look

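Between the wild-type prints, 6 of the 38 factors differed by limma's adjusted p, and the same arrays labelled pst3 repressed therefore gave different values against each print. Print B minus print A was at least 2.64 for nop4, whose probe was not above the empty spots on print A, 1.91 for nop52 and 1.18 for rrp1402, and it was -2.15 for noc1, -1.62 for rpf1 and -1.55 for dbp2, all on the log2 scale.

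Within print A, 4 factors had 1 array far from the other 4 by Dixon's criterion, which chance alone meets in about 1 in 20 groups. The share of all genes that meet it on these arrays is not given here. The count is therefore not read as a trait of the factors. Array 1 was lowest for noc3 at 9.78, array 3 was lowest for nip7 at 8.82 and highest for nog1 at 13.84, and array 5 was lowest for rrs1 at 9.84. Arrays 1 and 3 are also those that correlated least with the rest of print A.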

How the results depend on the processing

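In every alternative the median difference of the factors stayed below 0 from both prints, while the number of calls moved. Over all genes, 689 passed against print A, and 383 did so with both wild-type prints pooled, 123 with the print as a random block and 1034 without print A arrays 1 and 3 (chosen after seeing the data). Against print B 613 passed, and 180 did with median centring (61 lower, 119 higher, against 297 and 316), 383 pooled, 123 with the random block and 1180 without print A arrays 1 and 3. Between the prints 530 passed, 300 with median centring and 825 without these arrays. Factors lower against print A numbered 3 with the random block, where 54 of all genes were lower. Those lower against print B numbered 2 with median centring, 3 with the random block and 15 without the arrays. Over all genes these counts were 61, 54 and 573. Factors lower on print B than on print A numbered 6 with median centring, where 223 of all genes were lower. Lower against both prints were 1 factor with median centring and 11 without the arrays. The share of all genes meeting this last rule (3.39%) is given only for the processing described above. Leaving out 1 array at a time gave 186 to 869 genes against print A with 3 to 12 factors lower, 155 to 866 against print B with 1 to 10, 192 to 703 between the prints with 1 to 5, and 0 to 8 factors lower against both. These ranges start at the fits with 1 array labelled pst3 repressed, whose spread is then assumed to match the other groups, except between the prints, where the lowest count came without print B replicate 3.

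Of the values of single factors, 81 lost and 35 gained a call among 1130 recomputed. The sign turned in 8 of them, for ddx27, rix7, cgr1 and nop4, and none of these 8 had a call on either side; nop4 against print B was -1.17 and became 0.856 with the prints pooled and 0.653 with the random block. With the misplaced plates kept, 7 factors were lower against both prints. Nop16 was kept in 2 settings and passed in neither. IGR calls numbered 664 with normexp (2 factors, rix1 and ytm1), 329 with normexp and loess (1 factor, ytm1), 8 with plain subtraction, 33 with the first spot set and 0 with the second, against 87. The authors' value tables were not run as an alternative. Replicate numbers were given in accession order and pair no samples, but codes in the titles recur across the wild-type prints. Deviations from the group means of the 3 pairs of arrays that share a code across prints correlated at -0.0572, 0.013 and 0.000812. Arrays 1 and 4 of print A, which also share a code, correlated at -0.381 in the same way. Deviations within groups this small cannot tell whether such arrays hold the same RNA. With the code as a random replicate block (chosen after seeing the data), 717 genes passed against print A, 617 against print B and 482 between the prints, and 7 factors were lower against both. With the code as a fixed block over the 8 wild-type arrays, 66 genes passed between the prints, 45 lower and 21 higher on print B. This fit leaves 3 residual degrees of freedom. Of the factors, 0 passed as lower and 1, nop4, as higher (limma adjusted p = 0.015). Precision is limited by how few arrays there were. The arrays labelled pst3 repressed differ in the limit set by the empty spots, which was 782.7 intensity units on replicate 1 and 6.25 on replicate 2. Of the 38 factors, 32 exceeded it on replicate 1 (78.2% of all genes tested did) and 38 on replicate 2 (99.4%).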
